A study of Caenorhabditis elegans with 2 samples.

Results

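The genes of the CDC-48 ATPase and its cofactors were examined for binding of ELT-3, an epidermal GATA factor of Caenorhabditis elegans. The set held 6 of 19973 protein-coding genes, namely the ATPase genes cdc-48.1 and cdc-48.2, the cofactor genes ufd-1, npl-4.1 and npl-4.2, and the deubiquitylase gene atx-3. They were picked by name, after the strong region upstream of cdc-48.1 had been seen in these same data, so the values at cdc-48.1 are a description and carry no test. A region was counted for a gene when its summit lay inside the gene or no farther than 2000 bp from its 5′ end. All chromatin came from whole L1 larvae of both sexes of strain OP75, genotype unc-119(ed3) III; wgIs75, in which a transgene makes ELT-3 with GFP and FLAG at its C terminus. The age of the larvae is labelled unknown, and the sources used here do not name the promoter that drives the transgene. There is 1 group of 2 biological replicates, with no untagged strain and no second stage analysed here. Whole larvae were used, so the tissue in which a region was bound cannot be told apart.

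CDC-48, known as p97 or VCP in mammals, is an AAA ATPase that assembles into a ring and pulls ubiquitylated proteins out of complexes and membranes, often on their way to the proteasome. Its substrates are brought to it by cofactors, of which the UFD-1 and NPL-4 pair is the best known, serving protein degradation at the endoplasmic reticulum (ERAD) and on chromatin. ATX-3, the worm counterpart of human ataxin-3, trims ubiquitin chains on CDC-48 substrates. In the worm, cdc-48.1 and cdc-48.2 are known to cover for each other in the embryo.

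The authors' lists held 253 peaks in the optimal set, 30000 regions in the pooled list, 30000 in replicate 1 and 15646 in replicate 2, and every summit stood at the centre of its region. The signal value of a region is the authors' own score. Its scale and the read depths are not stated in the sources used here. Values are therefore compared by rank within a list. The optimal set was equal to the 253 pooled regions of largest signal, and no value in it was below 42.6. The median signal was 16.9 in the pooled list and 10.4 in each replicate list.

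The sequences of the cdc-48.1 peak and of the pooled regions upstream of cdc-48.2 are shown first, since the peak lacks the core word of GATA factors. All lie on chromosome II and are read 5′ to 3′ on the strand of the gene. Capitals mark the GATA core in either orientation (GATA or TATC), with its flanking bases where these complete one of the words AGATAA or AGATAG or TGATAA or TGATAG (together WGATAR) or their reverse complements. They also mark the words TGACGT and GAANNTTC on either strand. The genome is WBcel235 (RefSeq sequence), which is the build ce11.
cdc-48.1, peak at chrII:10563446-10563695, minus strand: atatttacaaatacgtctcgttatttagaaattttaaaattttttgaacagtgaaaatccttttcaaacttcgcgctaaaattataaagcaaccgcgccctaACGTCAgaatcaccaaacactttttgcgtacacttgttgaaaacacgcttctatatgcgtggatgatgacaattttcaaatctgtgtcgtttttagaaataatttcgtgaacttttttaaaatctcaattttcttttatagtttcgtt
cdc-48.2, region at chrII:8137907-8138156, plus strand: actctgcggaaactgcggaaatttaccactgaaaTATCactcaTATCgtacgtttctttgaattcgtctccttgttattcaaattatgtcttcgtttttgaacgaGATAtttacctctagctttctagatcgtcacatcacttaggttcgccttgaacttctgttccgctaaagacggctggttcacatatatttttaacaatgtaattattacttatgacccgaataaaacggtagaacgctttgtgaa
cdc-48.2, region at chrII:8137019-8137268, plus strand: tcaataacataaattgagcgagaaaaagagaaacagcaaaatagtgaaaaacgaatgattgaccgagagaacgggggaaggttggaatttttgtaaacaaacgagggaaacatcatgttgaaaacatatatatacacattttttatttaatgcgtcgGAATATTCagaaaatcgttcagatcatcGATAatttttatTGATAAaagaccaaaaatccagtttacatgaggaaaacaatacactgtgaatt
The cdc-48.1 peak has no GATA core on either strand in its 250 bases, and its one capital run is the word ACGTCA. The regions upstream of cdc-48.2 hold 3 GATA cores (the nearer) and 2 (the farther), and the farther of them also holds TGATAA and GAATATTC. Holding a core is common, since 80.6% of all pooled regions have at least 1 in 250 bases. Nor does it separate the ATPase genes: the third pooled region of cdc-48.2, in a coding exon, has none, and the weaker pooled regions inside cdc-48.1 have 3 each.

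One of the 6 genes, cdc-48.1, had an optimal peak, in a background where 1.39% of all protein-coding genes had one under the same rule. The gene (WBGene00007352) lies on chromosome II from 10560036 to 10563407 on the minus strand. Its peak had a signal of 148.0 and rank 4 of the 253 peaks, and its summit stood between genes, 164 bp upstream of the annotated 5′ end. Replicate 1 gave the same place, with a summit at the identical base, a signal of 86.8 and rank 1 of its list. Replicate 2 placed the summit 7 bp away with a signal of 75.0 and rank 4. Both libraries thus held cdc-48.1 among their 4 strongest regions.

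The neighbours of cdc-48.1 in the order of signal were close. In the pooled list the value of 148.0 stood between 148.8 at rank 3 and 146.3 at rank 5, and in replicate 1 the value of 86.8 was followed by 85.2. In replicate 2 the value of 75.0 stood between 80.4 and 72.9. The replicates did not give the same order: the region of iff-2 was below that of cdc-48.1 in replicate 1, at 85.2, and above it in replicate 2, at 80.4. The order among these few regions is therefore not resolved. By the strongest region of each gene, cdc-48.1 had rank 7 of the 15822 genes with a pooled region, a rank it shared with C06A1.6 and C06A1.7. The 5′ ends of these genes lay 1107 and 1320 bp from the same summit. C06A1.6 is read on the minus strand with the summit downstream of its 5′ end, and C06A1.7 is read away from cdc-48.1 on the plus strand. The snoRNA gene C06A1.9, which lies within cdc-48.1, has its 5′ end 507 bp from the summit.

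Beyond this peak the cdc-48.1 locus held regions of much smaller signal. A pooled region in a coding exon, 915 bp downstream of the 5′ end, had a signal of 15.5 and rank 20077 of 30000. Another in the 3′ UTR, 3146 bp downstream, had a signal of 13.7 and rank 28822. Neither had a replicate summit within 100 bp. Replicate 1 alone held a further region, in a coding exon 538 bp downstream, with a signal of 8.90 and rank 23984.

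**Figure D1:**
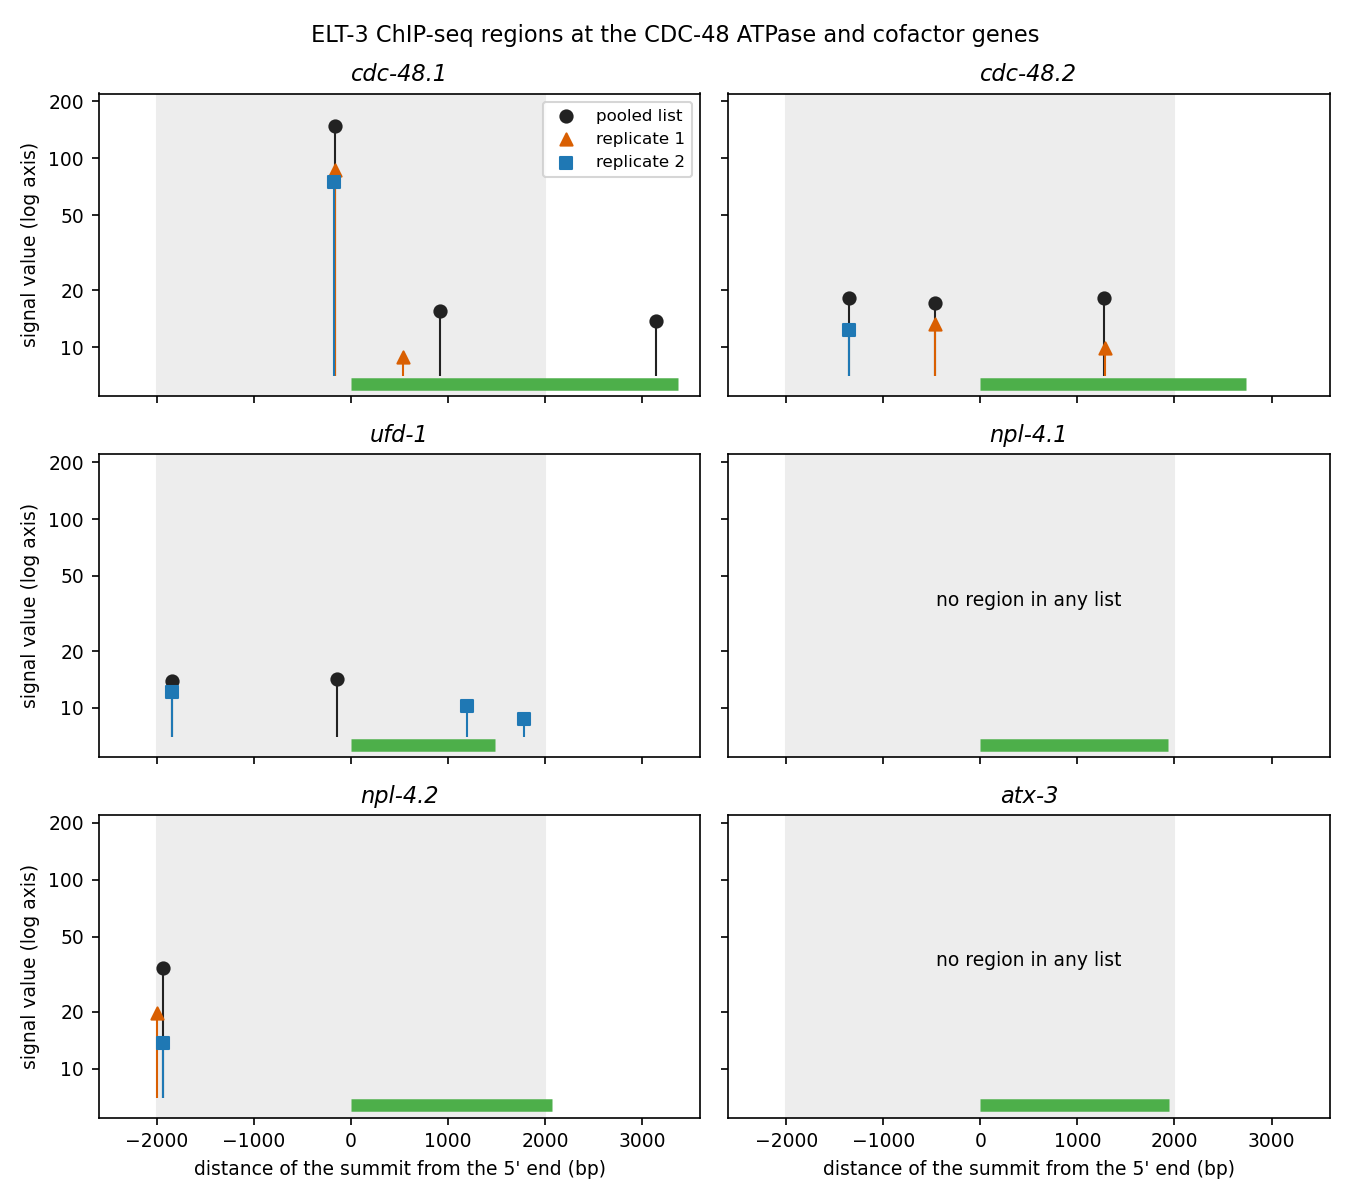
Signal value of each region (log axis) against the distance of its summit from the 5′ end of the gene in bp (negative is upstream), for the pooled list (circles), replicate 1 (triangles) and replicate 2 (squares). Green bars are the genes, and grey marks 2000 bp on each side of the 5′ end. The regions 164 to 171 bp upstream of cdc-48.1 stand at 148.0, 86.8 and 75.0, the other regions drawn are no higher than 34.1, and npl-4.1 and atx-3 have none.

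The second ATPase gene, cdc-48.2, had no optimal peak and no strong region. It lies on chromosome II from 8138496 to 8141230 on the plus strand (WBGene00008053), and its 3 pooled regions had signals of 18.3, 17.2 and 18.1. They stood 1352 bp upstream, 464 bp upstream and 1276 bp downstream in a coding exon. The first of them was nearer to another gene, 226 bp from the 5′ end of ctns-1, which encodes a lysosomal cystine transporter of the cystinosin family. Replicate 1 held the region at 464 bp upstream (signal 13.3, rank 5690) and one 1287 bp downstream (9.91, rank 17643). Replicate 2 held the region 1356 bp upstream alone, with a signal of 12.3 and rank 3663. No region of cdc-48.2 was therefore found in both replicates, and its strongest pooled region had rank 10951.

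The difference between the ATPase genes was seen in each list, and, being part of the reason for the choice of genes, it was not tested. The strongest region of cdc-48.1 exceeded that of at least 99.9% of the genes with a region in the pooled list and in each replicate list. That of cdc-48.2 exceeded 44.2% of such genes in the pooled list, 67.0% in replicate 1 and 67.6% in replicate 2. The coding sequences of the genes were 75.5% identical over an alignment of 2427 with 2430 bases. Even so, words of 30 bases from the cdc-48.1 gene were found again in the genome in 9 of 3343 cases (0.269%), and in 0 of the 221 words in the peak itself. For cdc-48.2 the count was 9 of 2706 (0.333%). The peak upstream of cdc-48.1 is thus unique sequence at that word length.

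Among the cofactor genes, ufd-1 had weak regions that differed between the libraries. UFD-1 binds ubiquitin chains and, with NPL-4, docks substrates on CDC-48. The gene (WBGene00006733) lies on chromosome IV from 12329408 to 12330890 on the minus strand. Its pooled regions, 148 and 1845 bp upstream, had signals of 14.2 and 14.0 and ranks 26326 and 27298, and both summits lay in the gene F19B6.1, the first in its 3′ UTR and the second in a coding exon. Replicate 1 held no region for ufd-1, its nearest being just beyond the limit at 2077 bp upstream with a signal of 8.44. Replicate 2 held 3, of signal 12.2 (1847 bp upstream, rank 3863), 10.2 (1193 bp downstream, in a ufd-1 intron) and 8.77 (1784 bp downstream). The region 148 bp upstream, the nearest to the 5′ end, was found in neither replicate.

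The second cofactor of the pair is encoded by the near copies npl-4.1 and npl-4.2, which lie in the same direction on chromosome II with 5′ ends 8462 bp apart. For npl-4.2 (WBGene00019121, 5622889 to 5624959) 1 pooled region was counted, with a signal of 34.1 and rank 537. It stood at the edge of the reach, 1938 bp upstream, in a coding exon of eif-3.L, the gene of a subunit of translation initiation factor eIF3. Replicate 1 had it at 1999 bp with a signal of 19.8 (rank 659) and replicate 2 at 1937 bp with a signal of 13.6 (rank 2242). The summit was nearer to the 5′ ends of eif-3.L (1532 bp) and of the short-chain dehydrogenase gene dhs-6 (1632 bp) than to that of npl-4.2. With a reach of 1000 bp, npl-4.2 had no region. The sequence of the pooled region is given on the strand of npl-4.2, with the same marking. It shows the WGATAR word nearest to a pooled summit of these genes, TGATAG, centred at 12 bp. Within 50 bp, the replicate 2 summit also had a WGATAR word and the replicate 1 summit had none.
npl-4.2, region at chrII:5620826-5621075, plus strand: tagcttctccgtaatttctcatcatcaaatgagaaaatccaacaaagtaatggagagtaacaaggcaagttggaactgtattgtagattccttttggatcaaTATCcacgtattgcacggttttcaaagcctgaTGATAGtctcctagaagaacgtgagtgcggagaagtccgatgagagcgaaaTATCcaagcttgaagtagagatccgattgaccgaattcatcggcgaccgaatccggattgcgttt
It held 3 GATA cores in 250 bases, and none of its 30-base words occurred elsewhere in the genome.

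No list held a region for npl-4.1 (WBGene00019120, 5631351 to 5633284 on the plus strand). The nearest summits were 2748 bp upstream in the pooled list (signal 15.9, rank 18449), 5141 bp upstream in replicate 1 (rank 28406) and 2843 bp downstream in replicate 2 (rank 14149). The npl-4 genes are almost the same sequence: 1579 of 1587 coding bases were identical (99.5%), as were 299 of 300 promoter bases, taken as the 250 before the 5′ end and the 50 that start with it. Of the 30-base words of npl-4.1, 86.9% were found again in the genome, all of them in the window of npl-4.2, and of those of npl-4.2 84.9% were found again. At 100000 random positions of the genome the share was 8.79%. The sources used here do not say how reads that match more than 1 place were treated, and the part of this repetition in the absence of regions was not tested. The last 120 bases upstream of the 5′ ends, shown because they are letter for letter the same at both genes, hold 3 GATA cores (capitals).
npl-4.1 at chrII:5631231-5631350 and npl-4.2 at chrII:5622769-5622888, plus strand: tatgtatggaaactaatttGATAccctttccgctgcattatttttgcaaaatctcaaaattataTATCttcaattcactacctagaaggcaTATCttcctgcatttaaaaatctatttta
No region of any list covered these bases.

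**Figure D2:**
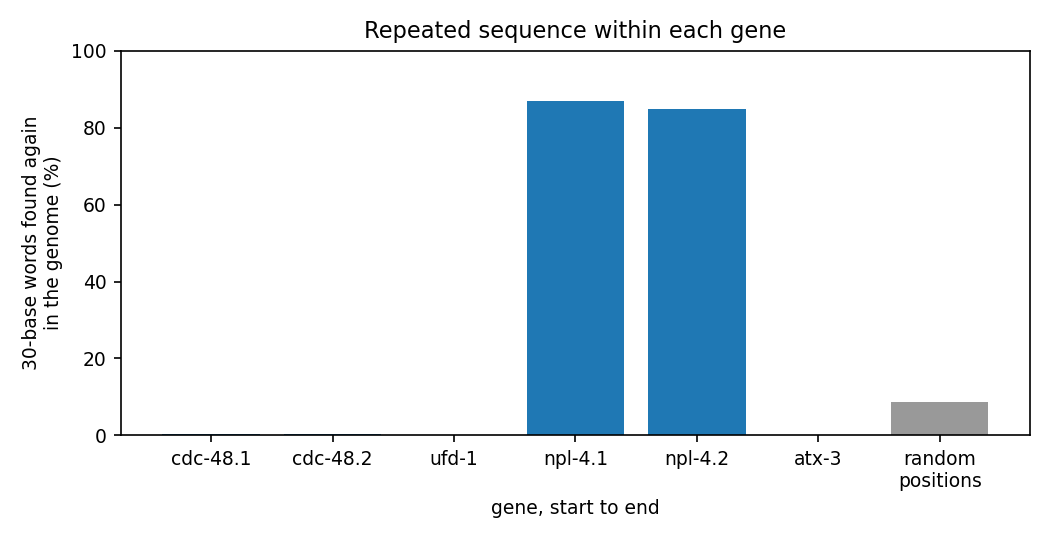
Percent of the 30-base words of each gene, from its start to its end, that occur more than once in the genome, with 100000 random positions for comparison (grey). The bars reach 86.9% for npl-4.1 and 84.9% for npl-4.2, and are below 1% for the others of the 6 genes.

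The deubiquitylase gene atx-3 (WBGene00006446, chromosome V from 15575498 to 15577445 on the minus strand) also had no region in any list. Its own sequence is not repeated, with 0 of 1919 words found again. The nearest pooled summit lay 3564 bp downstream of its 5′ end, past the end of the gene and 968 bp from the 5′ end of fbxa-94, with a signal of 28.4 and rank 1242. Replicate 1 held that region with a signal of 21.0 and rank 485, and the nearest of replicate 2 was 9461 bp away.

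Taken by list, 4 of the 6 genes had a pooled region, where 79.2% of all protein-coding genes had one. Replicate 1 held regions for 3 (background 79.6%) and replicate 2 for 4 (background 55.9%). Among the 253 strongest regions of each replicate, cdc-48.1 alone was represented, against backgrounds of 1.31% and 1.47% of genes. Most worm genes have a region in the longer lists, which hold background as well as peaks by their titles, so having one is not a distinction for cdc-48.2, ufd-1 or npl-4.2. The windows of the 6 genes held from 0 to 6.34 pooled regions per 10 kb, the highest at cdc-48.2, and the median over all genes was 2.50. Of the 9 pooled regions at these genes, 2 had a summit within 100 bp in both replicates (22.2%, against 15.03% of all pooled regions), namely those of cdc-48.1 and npl-4.2. The shares for each replicate count regions matched in both as well. In replicate 1, 44.4% of the 9 had one, against 58.2% of all pooled regions, and in replicate 2 44.4%, against 34.8%. Of the 9, 3 had one in neither replicate, a count with no share over all pooled regions beside it and so a description.

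**Figure D3:**
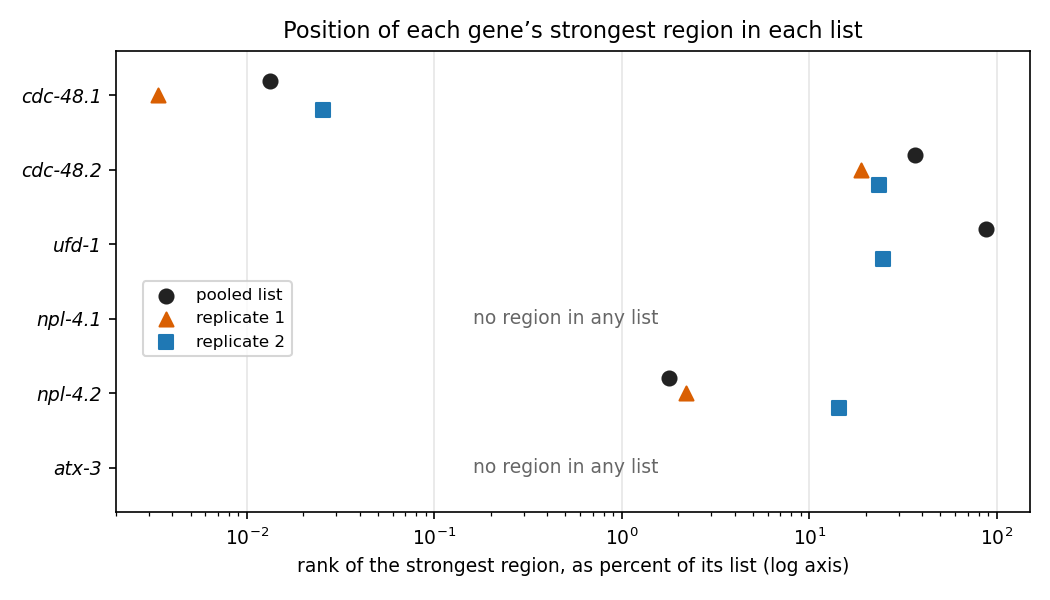
Rank of the strongest region of each gene as a percent of the length of its list (log axis, strongest on the left), for the pooled list (circles), replicate 1 (triangles) and replicate 2 (squares). The cdc-48.1 points lie at 0.0256% or farther left, those of npl-4.2 between 1.79% and 14.3%, and those of cdc-48.2 and ufd-1 from 19.0% upward.

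The words at the summits were not used in choosing the genes, but the words to search were picked with earlier results of these data known. The absence of any GATA core in the cdc-48.1 peak was shared by 30 of the 253 optimal peaks (11.9%), while 223 held at least 1 core in their 250 bases. Of the 8 strongest pooled regions, 2 held no core, those at rpl-3 and cdc-48.1, and 4 held a WGATAR word. Such a word was in 66.8% of the optimal peaks and in 44.9% of all pooled regions over their whole length. The cdc-48.1 peak held 30.4% G and C, against a mean of 41.3% ± 5.81 over the optimal peaks (SD, n = 253). Within 50 bp of the summit it held 40.6%, against 45.4% ± 7.68. Its word TGACGT, which reads ACGTCA on the strand of the gene and is the core of many sites of bZIP transcription factors, was centred 20 bp from the summit. That word was found in 12.3% of the optimal peaks, in 9.10% of pooled regions and in 10.3% of all promoters of 300 bases. The word CGCTCC was not in the cdc-48.1 peak and was in 11.1% of the optimal peaks.

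Over the 9 pooled regions of these genes, a WGATAR word lay within 50 bp of the summit in 1, that of npl-4.2, compared with 21.6% of all pooled regions and 44.3% of the optimal peaks. The bare core lay within that distance in 4 of 9, compared with 49.2% of pooled regions. With 9 regions at 4 genes, 1 of them the peak that led to the choice of genes, these counts are descriptions. In the promoters of 300 bases, cdc-48.1 and cdc-48.2 each held 1 WGATAR word, where 54.5% of all 19973 promoters hold at least 1. The word of cdc-48.1 began 34 bp upstream of the 5′ end, outside the peak but just past its edge at 10563446. The replicate 1 region of that summit, from 10563441 to 10563700, reached the first base of the word. The absence of a core therefore holds for the bases of the peak and not for those next to it. The word of cdc-48.2 began 127 bp upstream, in none of its regions. The promoters of ufd-1, npl-4.1, npl-4.2 and atx-3 held none. A match is a matter of letters alone and shows no site.

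By the signal of the strongest region in both replicates, the genes most like cdc-48.1 of 9672 compared were iff-2 and F54C9.14, which share 1 region (Euclidean distance 0.103 on log2 signal over the 2 samples), and rpl-35 (0.203). The iff-2 region had signals of 85.2 and 80.4, and that of rpl-35 78.95 and 67.6. Their regions held 2 GATA cores each and no WGATAR word. IFF-2 is a homologue of eIF5A and RPL-35 a protein of the large ribosomal subunit. The likeness was measured by the size of the signal alone.

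Other genes of CDC-48 function and of ERAD had regions, none of them in the optimal set. Of 23 such genes, none had an optimal peak, and with 1.39% of all genes called a count of 0 shows no depletion. A pooled region was counted for 22 of them (95.7%, against 79.2% of all genes), with the exception of the UBX cofactor gene ubxn-6. Replicate 1 held regions for the same number, 22 (95.7%, against 79.6%), and replicate 2 for 18 (78.3%, against 55.9%). These shares lay above the background in each list, and the difference was not tested. The windows searched at the 23 genes ran from 4001 bp to 11499 bp (mac-1), against a median of 4027 bp over all genes. A longer window can take in more regions, and the shares were not matched for length. The median signal of the strongest pooled region was 19.1 over these 22 genes and 18.9 over the 15822 genes with one. The largest value was 34.4 at ubql-1, the ubiquilin gene, 571 bp upstream (rank 521), with 22.1 and rank 379 at 522 bp in replicate 1 and 13.2 and rank 2697 in replicate 2. The gene shares that region with pdi-3, a protein disulphide isomerase gene. Next came the derlin gene der-2, with 25.8 in the pooled list, 10.3 in replicate 1 and 14.1 in replicate 2. Its pooled summit stood 1373 bp upstream, in an intron of hsp-75. The ubiquitin-conjugating enzyme gene ubc-6 had 25.5 in the pooled list and 12.0 in replicate 2, both 153 bp upstream. Replicate 1 had 10.1 and rank 16514 there (143 bp upstream), and a larger value, 16.2, at 342 bp upstream. The related ATPase gene cdc-48.3 had 22.9 in the pooled list, at rank 3782, in a coding exon 2434 bp downstream. That place had rank 26000 in replicate 1 and 9483 in replicate 2, and the strongest cdc-48.3 region of each replicate was elsewhere. In replicate 1 it stood 1753 bp downstream, with 12.5 and rank 7379. In replicate 2 it stood 215 bp upstream, with 11.7 and rank 4774. The pooled list held 20.4 at 216 bp upstream, and replicate 1 held 8.71 (rank 25347) at 265 bp upstream. The pooled values of all these genes lay below 42.6, the pooled value at which the optimal set ends.

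**Figure D4:**
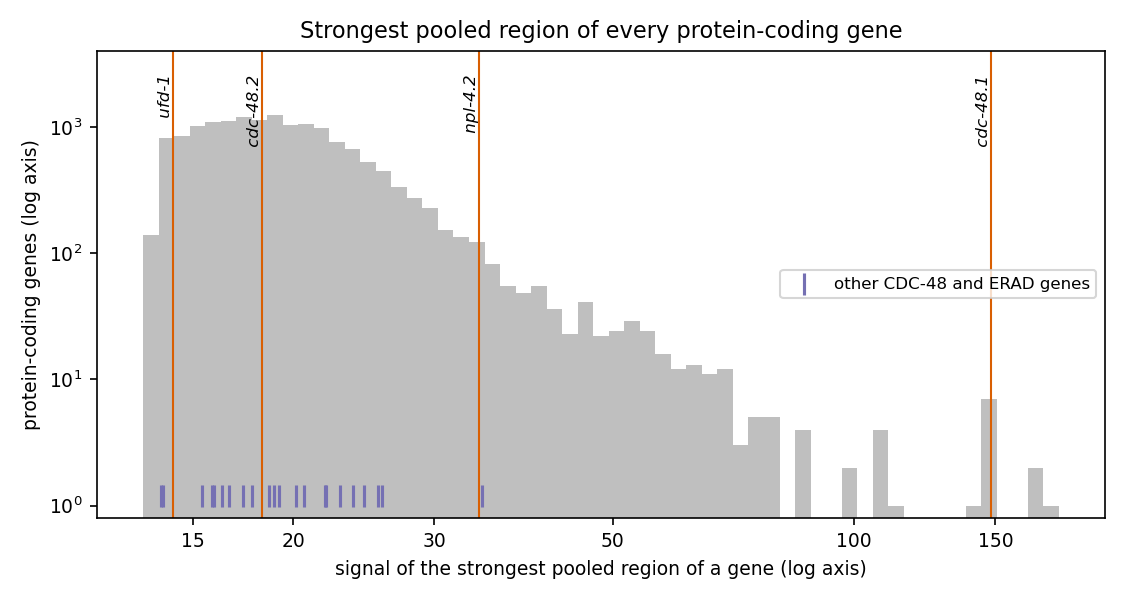
Distribution of the signal of the strongest pooled region (log axis) over the 15822 protein-coding genes that have one (log axis of gene number), with cdc-48.1, npl-4.2, cdc-48.2 and ufd-1 as vertical lines and 22 other CDC-48 and ERAD genes as ticks. The line of cdc-48.1 at 148.0 stands in the far right tail, those of cdc-48.2 at 18.3 and ufd-1 at 14.2 stand within the bulk, and no tick is higher than 34.4.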

How the data were processed

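ChIP-seq region lists of 2 biological replicates, grouped by the submitters' labels, were used as deposited. Column 7 of each narrowPeak list is a score, the signal value, which the authors computed per region on a scale that no source used here states. Per the deposited notes on the files, each replicate list came from 1 replicate and a control, the pooled list from both replicates and a control, and the optimal set from those lists. No aligner, peak caller or reproducibility threshold is named in the sources used here. Lists in ce10 were not used, as positions were not converted between builds.

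Regions were assigned to the 19973 protein-coding genes of Ensembl release 115 (WBcel235) by summit, inside the gene or within 2000 bp of its 5′ end, and ranked by signal within a list. Summits matched between lists within 100 bp. Words were searched on both strands within 50 bp of summits, in whole regions and in promoters of 300 bases. Paralogues were aligned globally with Biopython 1.88. The assignment and the word search were checked on simulated data. No p-value was computed, since there is 1 group and the genes were chosen with earlier results of these data known, as were the list of 23 other genes and the words. The counts of repeated 30-base words and the whole-region counts in the optimal set were added after the data were seen.

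Named genes were the 6 genes, genes with a 5′ end within 2000 bp of their strongest pooled summits, the 3 of those 23 with the largest pooled signal, and the 3 most like cdc-48.1. Other genes named were chosen after their values were seen. With read depth unknown, no interval on a signal value was made.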

Additional observations from a re-analysis of the deposited data

How the results depend on the processing

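Of 56 alternatives tried over 12 results, 37 gave a count within 1.5 times of the reported one or a value within its interval or replicate spread, and 19 did not. The count of 1 gene with an optimal peak, cdc-48.1, and of 0 among the 23 others was unchanged under all 7 alternatives for each. Where a replicate was left out, the 253 strongest regions of the other replicate stood in for the optimal peaks. Little could change here, since the genes were chosen after the cdc-48.1 peak was seen. That peak, 164 bp from the 5′ end, lay within each reach tried. A shorter reach, the nearest gene only or the larger-signal portion can only lower a count, so the 0 was fixed there. The background of 1.39% became 1.04% with a reach of 1000 bp, 0.911% with 500 bp, 0.761% with the nearest gene only and 0.776% with the larger-signal portion of the peaks, and was 1.31% to 1.47% over single replicates. The pooled count of 4 genes was 3 with 1000 or 500 bp or the nearest gene (without npl-4.2) and in the larger-signal portion (without ufd-1), and 3 or 4 over single replicates. The background of 79.2% became 67.8%, 61.2%, 59.3% and 54.8% in the same order, and was 55.9% to 79.6% over single replicates. Of the 9 pooled regions, 1 matched both replicates at 50 bp and 3 at 250 bp. A WGATAR word was in 3 within 100 bp and in 3 in whole regions, where 44.9% of all pooled regions held one. Within 50 bp the core alone was in 4 (49.2% of all pooled regions) and GATAAG in 0 (5.52%). The other matching distances and the 100 bp window have no background share beside them, so those counts are descriptions. Ranks of strongest regions moved with the list. That of cdc-48.1 was 4 pooled, 1 in replicate 1 and 4 in replicate 2. That of cdc-48.2 was 10951 (36.5% of the pooled list), 5690 (19.0%) and 3663 (23.4% of a shorter list), and that of npl-4.2 was 537, 659 and 2242. The cause was not tested. No paired analysis was possible because there is 1 group. Unknown read depth limits every absence reported.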

Other observations

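The ubiquitin ligase gene ufd-2, whose product extends ubiquitin chains on CDC-48 substrates, was chosen for mention after its values were seen. Its region 301 bp upstream had a signal of 18.9 and rank 456 in replicate 2. Replicate 1 had no region there, and its own region for ufd-2 stood 1568 bp downstream with a signal of 16.1 and rank 2113. The pooled list gave 22.0 and rank 4648 at 311 bp upstream. The gene vms-1, whose yeast counterpart binds Cdc48, was likewise chosen after its values were seen, and its strongest region differed between the libraries. In replicate 1 it stood 1625 bp downstream with a signal of 18.1 and rank 1096, and in replicate 2 it stood 375 bp downstream with a signal of 13.1 and rank 2811. Replicate 1 also held the nearer place, at 368 bp with a signal of 10.3 and rank 15761, while replicate 2 held no other region of the gene. The pooled list held both places, with 24.5 at 377 bp and 21.6 at 1625 bp.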
